A study of Mus musculus with 4 samples.

Results

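The PER2Luc line of mouse embryonic stem (ES) cells was examined after 28 days of differentiation in culture, with and without doxycycline (dox). The 2 arrays of this line, titled for day 28 without dox and day 28 with dox, were taken from the 4 arrays of the study by their titles; the other 2 hold the line KY1.1. Both PER2Luc samples carried the transgene tetO:c-myc, which places c-Myc under the tet operator that dox makes active, and the mPer2Luc luciferase reporter. One sample was grown throughout in medium without dox and the other in medium with 500 ng/ml dox. The KY1.1 samples carried tetO:c-myc with an mBmal1:luc reporter and were grown without dox or with 40 ng/ml dox for the same 28 days. Each group is 1 RNA sample on 1 array, so values are given as sizes and no p-value was computed. Cells grew on mouse embryonic fibroblast feeders as ES cells, were freed of feeders, formed embryoid bodies and spread on gelatin, so each RNA comes from a mixed outgrowth. No array holds dox-treated cells without the transgene, so an action of dox itself and one of c-Myc cannot be told apart.

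c-Myc is a transcription factor that pairs with MAX on E-box sequences, drives growth and ribosome production, and supports the undifferentiated state of stem cells. PER2 is a repressor of the circadian clock: it accumulates, enters the nucleus and holds back CLOCK and BMAL1, which themselves act through E-boxes. ES cells show no circadian rhythm and acquire one as they differentiate, and the study's title places Kpna2, an importin that carries proteins into the nucleus, in that process. The tables used here do not pair the chip's probe IDs with genes. Probes are therefore given by ID. No statement is made on Myc, on Kpna2 or on genes of the clock, and neither the induction of c-Myc nor the cell types of the outgrowth could be checked against marker genes.

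The arrays measured 23472 probes, each read as the median brightness of 1 spot. A probe counted as above background where it read over 2 SD above the mean of its array's 2736 BLANK spots, which was 22.8 intensity units on both PER2Luc arrays. The BLANK mean was 19.5 units on each, so dim probes were read from the same base. On the KY1.1 arrays it was 39.0 units without dox and 39.5 with dox, so raw units of the 2 lines do not share a base. Without dox 20273 probes lay above background and with dox 19752. The median spot read 57 units without dox and 48 with it, while 1 in 100 probes exceeded 6804 units without dox and 7934 with it. The array with dox was thus dimmer in its middle and brighter at its top. The 24 spots of positive control 2 averaged 6997 ± 571 units (SD over spots) without dox and 4872 ± 637 with dox, and those of positive control 3 averaged 19127 ± 1748 and 27792 ± 3074. The controls moved in opposite directions, and their part in the results was not tested.

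With the processing used here, more probes were lower than higher by 2-fold with dox, and the falls were deeper than the rises. After background correction and quantile normalisation, 847 of 21062 evaluated probes were at least 2-fold lower with dox (4.02%) and 721 at least 2-fold higher (3.42%). Of the 847, 37 were not above background with dox. At 3-fold or more, 333 were lower (1.58%) and 159 higher (0.755%). At 4-fold the counts were 197 (0.935%) and 58 (0.275%), and at 8-fold 60 (0.285%) and 16 (0.076%). The excess of falls thus grew with the size asked for. At 2-fold it turned with the BLANK mean subtracted and no offset (2794 lower, 2820 higher) and in the authors' deposited values (2204 lower, 2700 higher); at 8-fold falls were the majority in each alternative tried. The median log2 fold of the lower probes was -1.41 and that of the higher probes 1.27, and the deepest 1 in 10 of the falls lay at -2.78 or below, against 1.90 or above for the rises. Among the 10366 probes bright enough without dox for a 2-fold fall to be measurable, 6876 (66.3%) differed by less than 1.5-fold. In a mixed outgrowth fewer cells of a type and less RNA per cell cannot be told apart.

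**Figure D1:**
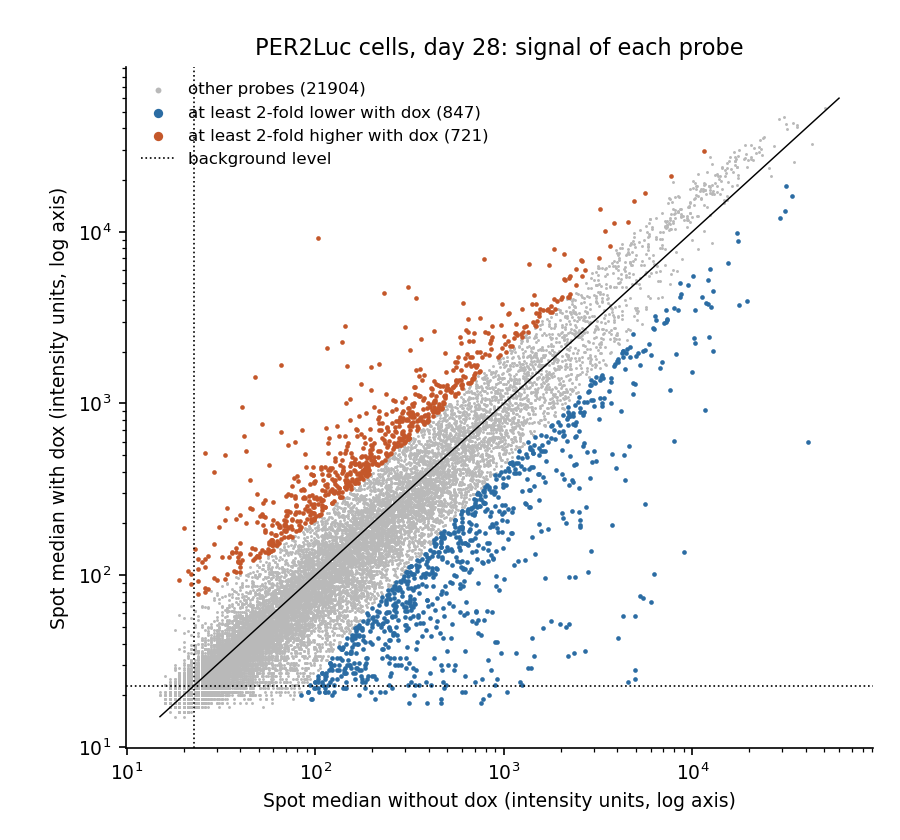
Spot median of each of 23472 probes on the PER2Luc array without dox (horizontal) and with dox (vertical), both on log axes in intensity units, with the line of equal signal and dotted lines at the background level of 22.8 units. The 847 lower probes reach down to the background level from far along the horizontal axis, while the 721 higher probes start mostly between 53 and 949 units; calls use normalised values, so their edges do not run parallel to the line.

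A pair of arrays that differs in line but not in dox gives a scale for these sizes. PER2Luc and KY1.1 cells without dox differed at 2-fold in 229 probes lower in PER2Luc (1.07%) and 211 higher (0.987%). The SD of the log2 difference over probes was 0.34 there and 0.58 for dox in PER2Luc. Among the brightest of 10 classes of probes, set by the mean level of the arrays compared, the SD was 0.52 between the lines and 0.91 with dox. Among the dimmest it was 0.06 and 0.09. The line comparison also spans 2 scans, which cannot be told apart from the line. Over repeated spots of one positive control sequence, the SD within a PER2Luc array was 0.12 to 0.19 on the log2 scale. A 2-fold difference is well outside this error of a single bright spot within an array. That error does not include differences between cultures, labellings or chips. Between the 2 PER2Luc arrays the raw means of the positive controls went from 6997 to 4872 and from 19127 to 27792 units.

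The probes that fell furthest all started from a strong signal, and the first 3 ended close to background. The strong start follows from the offset. At the median level of the brightest of 10 classes without dox, the largest fall that could be measured was 26.8-fold. In class 9 it was 8.73-fold. M400001588 read 4956 units without dox and 25 with it, 78.2-fold lower after normalisation. M200000404 went from 4959 to 28 units (74.0-fold lower) and M300001817 from 4557 to 24 (72.1-fold lower). These 3 ended within 6 units of the background level, so the offset of the correction limits their folds. M200003295 started higher, at 41210 units, as the third brightest probe of the array, and read 594 with dox, 71.7-fold lower. It fell to rank 2434 but stayed well above background. The other 6 of the 10 deepest falls started between 4031 and 9010 units and ended between 43 and 136, from 43.2-fold to 53.4-fold lower. The 10 lay in 8 different blocks of the chip. Each was also at least 2-fold lower in KY1.1 with 40 ng/ml dox, with log2 folds from -6.37 to -3.03. For M400001588 the KY1.1 spots read 804 units without dox and 45 with it, a smaller starting signal than in PER2Luc. The direction of all 10 was negative under each of the 8 alternative ways of processing.

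The rises were smaller and their companions in KY1.1 were mixed. M200000925 stood apart, at 104 units without dox and 9160 with it, 58.1-fold higher. In KY1.1 it went from 262 to 6515 units, so it rose in both lines. The next rise was 16.8-fold, in M400010862, from 232 to 4426 units. M200014783 followed from 48 to 1428 units (16.7-fold higher) and M200003831 from 66 to 1679 (16.2-fold higher). All of the 10 largest rises started at 342 units or less and ended between 951 and 9160. The largest rises began in level classes below the brightest of 10, 3 of them in class 8 or 9, while the deepest falls began at rank 399 or brighter. With the offset, falls that deep could be measured only from bright probes, so this contrast is not a result about the probes. Of these 10, M200000925 and M400010878 were also at least 2-fold higher in KY1.1, M200014783, M200007618 and M200002895 were not called there, and the other 5 were at least 2-fold lower there.

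**Figure D2:**
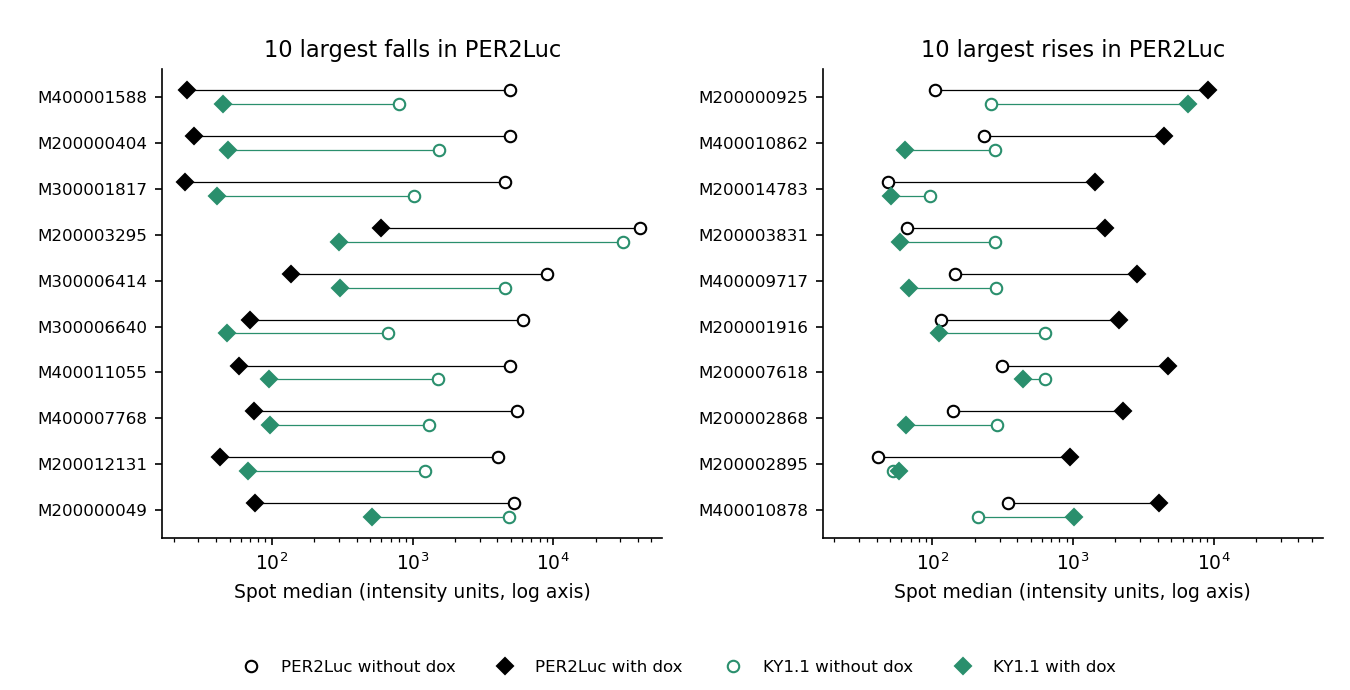
Spot medians in intensity units (log axis) of the 10 probes with the largest falls (left) and rises (right) in PER2Luc, without dox (open circles) and with dox (filled diamonds), for PER2Luc in black and KY1.1 in green. All 10 falls run the same way in both lines, while 7 of the 10 rises have a KY1.1 log2 fold below 0.

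The 5 rises that ran the other way in KY1.1 were read as follows. M400010862, M200003831, M400009717 and M200002868 read 280, 278, 282 and 289 units in KY1.1 without dox, and 64, 59, 68 and 65 units with dox. In PER2Luc they read 232, 66, 144 and 139 units without dox and 4426, 1679, 2829 and 2267 with it. The fifth, M200001916, read 633 and 112 units in KY1.1 and 115 and 2116 in PER2Luc. These probes sit in 5 different blocks of the chip. The group was described after its values were seen.

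In all, 25 probes were at least 2-fold higher with dox in PER2Luc and at least 2-fold lower in KY1.1, and 1, M200008337, did the reverse (1518 to 389 units in PER2Luc, 554 to 1097 in KY1.1). This imbalance was not found with local background subtracted, which gave 23 probes of the first kind and 28 of the second. The 25 made up 3.48% of the 718 rises of 2-fold or more that were evaluated in both lines. Opposite calls were 13 of 57 rises of 4-fold or more (22.8%) and 5 of 16 rises of 8-fold or more (31.3%). Among falls, 1 of 847 at 2-fold, 0 of 197 at 4-fold and 0 of 60 at 8-fold were called higher in KY1.1. Calls in the same direction were found for 47.2% of falls at 2-fold, 67.5% at a log2 fold of 1.5, 79.7% at 4-fold and 96.7% at 8-fold. For rises these shares were 32.3%, 51.6%, 35.1% and 4 of 16. The share of falls also called in KY1.1 thus grew with size, and that of rises did not. KY1.1 called 650 probes lower (3.07%) and 354 higher (1.67%) by the same rule. The 3.48% of rises called lower there was thus near the share over all evaluated probes. The 1 of 847 falls called higher (0.118%) was below that share. The lines differ in dose and scan as well as in origin, and whether their responses differ could not be tested with 1 array per group.

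The 25 were picked on all 4 arrays, so their levels are a description only. Their median spot read 144 units in PER2Luc without dox and 872 with dox, against 289 and 65 in KY1.1. M200000888 had the deepest KY1.1 fall of the group, from 2140 to 63 units, while in PER2Luc it went from 217 to 1697.

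**Figure D3:**
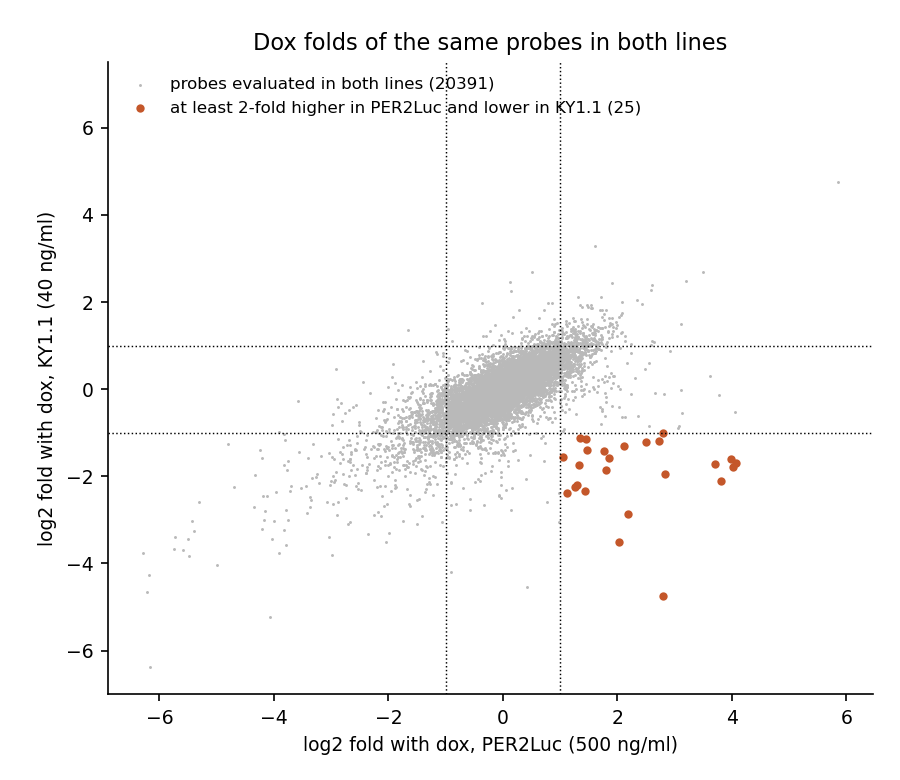
The log2 fold with dox of 20391 probes evaluated in both lines, for PER2Luc (horizontal) and KY1.1 (vertical), with dotted lines at 2-fold. The deep falls at lower left are shared by the lines, and the 25 coloured probes at lower right reach a PER2Luc log2 fold of 4.07 with KY1.1 folds down to -4.75.

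Calls were tied to the starting level. Evaluated probes were divided into 10 classes of equal size by their normalised level without dox. In the brightest class, which began at 743 units, 351 probes (16.7%) were lower with dox and 88 (4.18%) higher. In class 8, between 188 and 339 units, the shares were 7.60% and 6.41%, and in class 6, between 71 and 113 units, 1.19% and 4.80%. The brightest class thus held 41.4% of all lower calls and 12.2% of all higher calls. Classes 1 to 5 held no lower call and 126 higher calls. With the offset of 50 units, a spot needs to read at least 74 units without dox for a 2-fold fall to be possible, and 10696 probes (50.8%) read too little. Among the 10366 that could fall by 2-fold, 8.17% were called lower and 5.65% higher. This limit was set on the level without dox only. It keeps every lower call and leaves out 135 higher calls, so the 2 shares are not an even comparison. With no offset, lower calls appeared in every class, from 58 in class 1 to 387 in class 10, and higher calls numbered 359 and 100 there. The brightest class then held 17.3% of all lower calls and 5.21% of all higher calls.

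The lower probes had a median spot of 586 units without dox, with 1 in 10 below 162 and 1 in 10 above 3893. With dox their median was 109 units. Of the 351 that started in the brightest class, 120 were still in the brightest class with dox, 35 had dropped to classes 1 to 5, and 4 were not above background. Among all 847, 325 moved by 3 classes or more and 123 stayed in their class. The higher probes had a median spot of 189 units without dox and 556 with dox. Of the 301 that ended in the brightest class, 88 had started there and 4 came from classes 1 to 5. Of the 721 rises, 5 were not above background without dox. The offset bears on this count, since no called rise ended below 78 units. Probes that went from not above to above background had a median of 24 units with dox. Class 1 held 359 higher calls with no offset, so the count does not show that most rises were of transcripts measurable before.

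Classes set by one of the compared arrays favour falls at the top of that array, so other orders were tried. Sorted by the level with dox, the picture was close to a mirror: the brightest class held 301 higher calls (14.3% of its probes) and 120 lower calls (5.70%). Sorted by the mean of both arrays, it held 215 lower (10.2%) and 176 higher (8.35%). The KY1.1 array without dox took no part in the PER2Luc comparison other than through the shared normalisation. Sorted by its level, the brightest class held 280 lower calls (13.3%) and 113 higher calls (5.36%), and classes 1 to 5 held 65 lower and 102 higher calls. By this array of untreated cells bright probes fell more often than they rose, with the correction and offset used here. The KY1.1 array with dox, given below, showed the reverse. The KY1.1 order was not counted under other processing. In the authors' deposited values the order turned: the brightest class by PER2Luc level without dox held 12.5% of 2204 lower calls and 11.4% of 2700 higher calls. Higher calls thus outnumbered lower calls there. Sorted by the KY1.1 array with dox, the brightest class held 148 lower and 223 higher calls. In both lines the leading direction in the brightest class thus turned with the dox state of the sorting array. These orders do not settle whether bright probes fell more often.

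**Figure D4:**
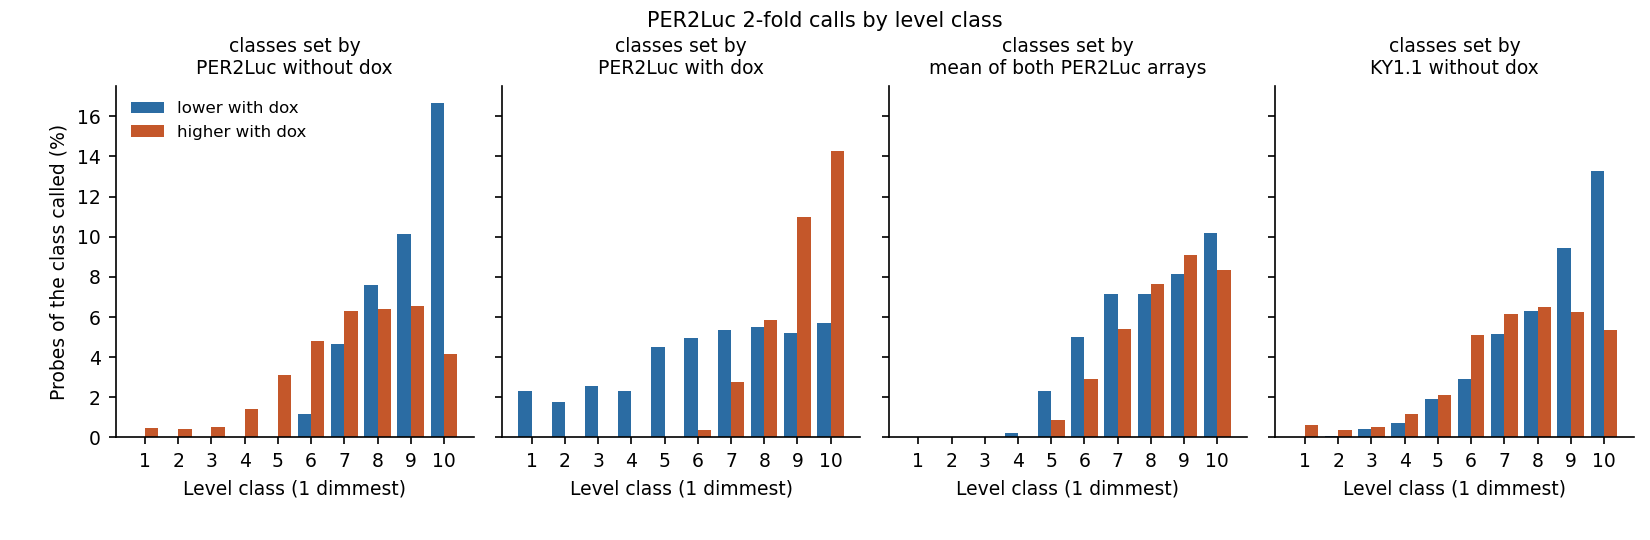
Share of the probes of each level class (1 dimmest to 10 brightest) called at least 2-fold lower or higher with dox in PER2Luc, with classes set by 4 different levels. With the correction and offset used here, lower calls exceed higher calls in class 10 when either array without dox sets the classes (16.7% and 4.18%, 13.3% and 5.36%). The order turns when the PER2Luc array with dox sets them (5.70% and 14.3%). It also turned with the KY1.1 array with dox, which is not drawn (7.02% and 10.6%).

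Switching was counted from the background level itself, on raw spots. With dox 1310 of 23472 probes (5.58%) went from above to not above background, and 789 (3.36%) went the other way. With the level taken from spots without a probe these were 2333 and 259, spot means gave 373 upward crossings, and the empty cells of the authors' deposited values gave 707 downward. 18963 probes were above background on both arrays and 2410 on neither. Most crossings were small: 965 of the 1310 had been within 5 units of the background level, and 717 of the 789 ended within 5 units of it. Spots without a probe crossed in the same way, 94 of 1102 (8.53%) downward and 106 (9.62%) upward. BLANK spots crossed in 98 of 2736 cases (3.58%) downward and 84 (3.07%) upward. Crossings close to the level thus also occurred in spots that hold nothing.

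Crossings from a clear signal were rarer and nearly all downward. From at least 2 times the background level, 90 probes (0.383%) were switched off with dox, and 12 (0.0511%) were switched on to such a level. No BLANK spot and no spot without a probe did either. Without dox these read at most 26 and 30 units, under 2 times the level, so none could be switched off by this rule. With dox they read at most 28 and 48 units. The absence of empty spots is therefore no check on the 90. At 4 times the level or more the counts were 35 and 4. As a share of the probes that started at 4 times the level or more, 35 of 9350 were switched off (0.374%), against 55 of 3694 (1.49%) that started between 2 and 4 times the level. The 90 had a median spot of 73.5 units without dox, up to 1034, and read between 17 and 22 units with dox. Off probes thus started mostly at a modest level. The lower middle of the array with dox, at a median of 48 against 57 units, moves the same way, and its part in these counts was not tested. By normalised fold, 37 of the 90 were at least 2-fold lower and 5 of the 12 at least 2-fold higher; the offset shrinks the folds of the rest.

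**Figure D5:**
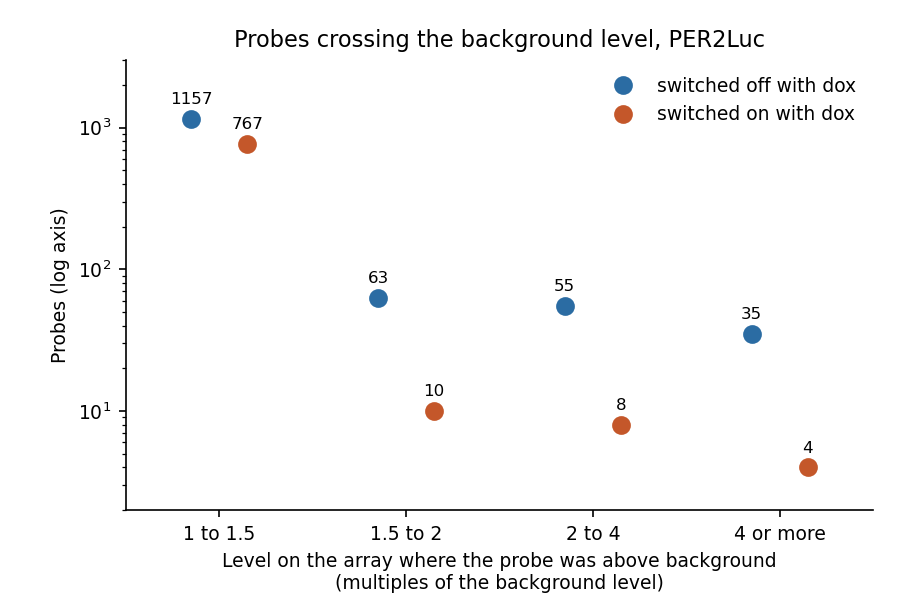
Number of probes (log axis) that crossed the background level with dox in PER2Luc, by how many times the background level the probe read on the array where it was above background. Near the level 1157 probes were switched off and 767 on; at 2 to 4 times the level these were 55 and 8, and at 4 times or more 35 and 4.

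The clearest losses ended at the level of spots that hold nothing. M400004975 read 1034 units without dox, 45.4 times the background level, and 21 with dox, at least 15.7-fold lower. M400001690 went from 837 to 20 units and M200010001 from 773 to 19 (at least 12.1-fold lower). M200013810 read 761 and 18 units and M200000809 read 624 and 21. These bounds set the normalised level without dox against the dimmest probe above background with dox, or the probe's own level where that is higher. They hold for the correction and offset used here: with local background subtracted the log2 fold was -3.20 for M400004975 and -3.10 for M200010001, and over the alternatives it reached -9.23 and -8.82. All 5 were also switched off in KY1.1, where they started between 240 and 575 units and ended between 37 and 41, below the background level of 42.0 there. Of the 90 probes, 87 were above background in KY1.1 without dox, and 53 were switched off there too.

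The clearest gains were weaker, and few had a counterpart in KY1.1. M300007879 read 20 units without dox and 188 with it, at least 3.94-fold higher, and 39 and 38 units in KY1.1, where neither spot was above background. M400011109 went from 21 to 106 units (at least 2.58-fold higher), M200000536 from 22 to 102 and M300015984 from 19 to 94. The fifth, M400009715, read 22 and 89 units. With local background subtracted the log2 fold was 1.54 for M300007879 and 1.03 for M400011109, so these bounds too hold for the correction used. M200000536 was above background in KY1.1 on both arrays, at 47 and 65 units, as was M400011109, at 47 and 43. BLANK spots averaged 39.0 and 39.5 units on those arrays, so most of each reading was the base. Of the 12 clear gains, 1 was switched on in KY1.1 and 5 were above background there with dox. By the same rule KY1.1 had 56 clear losses (0.239%) and 0 clear gains. The background level was 41.5 and 42.0 units there, against 22.8 in PER2Luc. A spot at 2 times the level thus lies further above BLANK in KY1.1, and the counts of the lines are not directly comparable.

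The calls moved a measurable part of the total signal. Above the BLANK mean, the 847 lower probes held 15.7% of the signal of all probes without dox and 4.21% with dox, a fall to 0.286 of their summed signal. The 721 higher probes held 3.30% and 8.87%, a rise of 2.86-fold. These shares follow from the choice of the probes and are given as a description. The lower probes thus gave up more signal than the higher ones took, yet the total with dox was 106% of that without. These are sums of raw spots before normalisation. Probes that were not called therefore gained raw signal too, and the shares do not show a transfer between the called groups. The probe that lost most, M200003295, accounted for 4.13% of the signal lost by the lower probes. The rest was spread over the other probes of the group.

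The brightest probes of the arrays were partly replaced. M400002052 was the brightest probe on both, at 50408 units without dox and 52369 with it. Among the 10 brightest probes without dox, M200003295 and M200009414 (33841 to 16169 units, 2.87-fold lower) were called lower, and the other 8 differed by at most 1.84-fold. M400002879 and M400000325 also left the first 10, for ranks 12 and 40. Of the 100 brightest without dox, 14 were called lower and 0 higher. The 22 that left this group had a median rank of 181 with dox, and 12 stayed within the first 200. The 22 that entered it came from a median rank of 123.5, and 2 of them were called higher. M400002280 came from the lowest rank, 198, and went from 7740 to 21086 units (log2 fold 1.12). The 100 brightest probes held 22.1% of the signal without dox and 26.6% with dox.

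Calls were found in every block of the chip and in each ID series of its probes, at unequal shares. Whether position on the chip had a part was not tested. In the 24 blocks the share of lower probes ran from 2.33% to 5.52% and that of higher probes from 1.66% to 6.0%, and the block medians of the log2 fold from -0.03 to 0.06. The 90 clear losses lay in 23 blocks. Probe IDs begin with M2, M3 or M4; what the series stand for is not given in the sources used here. Lower calls made up 5.68% of evaluated M2 probes, 3.39% of M3 and 2.83% of M4 probes, and higher calls 4.43%, 3.13% and 2.62%. The M2 probes were also brighter, with a median spot of 122 units without dox against 67 and 46. Within the 3 brightest classes the lower shares were 12.4%, 10.2% and 10.9% and the higher shares 5.75%, 5.33% and 6.04%, so the series differed less where brightness was alike.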

How the data were processed

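RNA was amplified and labelled with Cy5, per the labels' protocols. The file headers name a Toray mouse chip and the same detector gain for both PER2Luc arrays. The deposited scanner files give spot intensity on the linear scanner scale, with no background subtracted; normalisation by the authors is not recorded there. The deposited value table holds linear intensity with column medians near 25.0 and empty cells for dim probes; how it was made is not given in the sources used here.

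Spot medians were corrected with normexp (limma 3.58.1, R 4.3.3, offset 50), log2 transformed, and quantile normalised with all 4 arrays. Control spots were dropped after correction, 1 probe with a spot marked bad was removed and 1 repeated probe averaged. A probe was evaluated where either PER2Luc array was above background and called at 2-fold with the brighter array above it. The calling steps were run on simulated data: changes were added to a copy of the PER2Luc array without dox. The noise was that of repeated control spots within an array. Differences between cultures, labellings or chips were not part of it, so it does not give the error of the calls. Precision is limited by having 1 array per group, and no interval over arrays can be given. Probes named are the 10 largest folds each way, the 5 clearest switched off and on, and the 10 brightest. The gene lists planned could not be placed on probes and no list was tested. Members, rules and lists were chosen with earlier results of these data known. Alternatives were other background corrections, background levels, normalisations, filters, call sizes, spot means and the deposited table.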

Additional observations from a re-analysis of the deposited data

Results flagged for a closer look

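With dox 25 probes were at least 2-fold higher in PER2Luc and at least 2-fold lower in KY1.1, and 1 did the reverse. The 25 were 3.48% of the rises, near the 3.07% of all evaluated probes called lower in KY1.1. The 1 was 0.118% of the falls, against 1.67% of all evaluated probes called higher there. With local background subtracted the counts were 23 and 28. These opposite directions of single arrays drew attention, and the difference between the lines was not tested. Among spots that hold no probe, 10.5% exceeded the background level on the PER2Luc array without dox and 11.6% on that with dox, against 3.62% and 3.11% of BLANK spots.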

How the results depend on the processing

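No replicate could be left out and no paired analysis was possible because each group has 1 array and the labels carry no replicate numbers. The probes named by the rule with a fold of 2 or more, the 25 opposite probes, M200008337 and M400002280 kept their PER2Luc direction wherever the 8 alternatives for background, scaling, spot summary and source values gave one. The alternatives that keep the offset left the 2-fold and 8-fold counts within 1.5 times. With no offset 2233 probes were lower and 1918 higher, and with the BLANK mean subtracted 2794 and 2820. The authors' deposited values gave 2204 lower and 2700 higher; at 8-fold these were 233 and 61, 380 and 105, and 305 and 98. At 1.5-fold 1964 were lower and 1955 higher, and at 3-fold 333 and 159. The excess of 2-fold falls thus turned under BLANK subtraction and in the deposited table, while that of 8-fold falls did not. The probes higher in PER2Luc and lower in KY1.1 numbered 73, 133 and 115 under the same 3 alternatives, 51 at 1.5-fold and 11 at 3-fold; the reverse numbered 13, 56, 10, 15 and 0, with 28 under local background (against 23), 2 under median scaling, 2 under cyclic loess and 0 with quantiles over the PER2Luc arrays. Switched off and on were 2333 and 259 with the level from spots without a probe. By the empty cells of the deposited values 707 were switched off, and with spot means 373 were switched on. From 2 times the level, 147 and 20 crossed at 3 SD and 204 and 22 with spot means, and 179 were off with the level from spots without a probe. The share of lower calls in the brightest class was 17.3% with no offset, 13.9% with BLANK subtraction, 50.1% with local background, 36.1% under median scaling, 37.5% with spot means, 12.5% in the deposited values (11.4% for higher calls, of a larger number), and 14.2%, 25.4% and 33.1% with classes by dox level, mean level and KY1.1 level. For higher calls it was 5.21% with no offset, 3.58% with BLANK subtraction, 18.0% with local background, 18.0% under median scaling and 7.10% under cyclic loess, and 41.7%, 24.4% and 15.7% by those 3 orders. With nothing subtracted the 100 brightest probes held 21.0% and 25.4% of the signal. Beyond the offset and the level used, the causes were not tested. Signal close to background limits what can be said of the dimmer probes. Opposite, 8-fold and clear-switch counts and the KY1.1 order were added after seeing the data.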
